A study of Homo sapiens with 6 samples.

Results

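Collagen genes were examined in RNA-seq of A2780, a human ovarian carcinoma cell line. The members were the protein-coding genes whose symbol has the form COL, a number, A and a number, and this rule gave 44 of the 60483 genes listed in the count table. The parental cells (WT) and the CDK12 knockout cells (CDK12 KO, called KO from here on) were each represented by 3 libraries, and both were kept in RPMI medium with FBS and glutamine. KO is a single clone, obtained by transfecting A2780 with a CRISPR/Cas9 plasmid aimed at exon 1 of CDK12 and by repeating the transfection on a heterozygous clone. Differences of KO from WT therefore cannot be told apart from differences of that clone. The paper reports a higher DNA content and chromosome number in the clone than in the parental cells. Counts scaled to library size do not measure RNA per cell. No source states that the libraries of a group came from separate cultures, so p-values measure only the spread between these libraries, which may be technical.

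Collagens are proteins of the extracellular matrix in which chains wind into a triple helix. Fibrillar collagens build the fibrils of connective tissue, network collagens form sheets such as the basement membrane, and others sit on fibrils, cross the cell membrane or link one structure to the next. Chains are hydroxylated, glycosylated and folded in the endoplasmic reticulum, exported, trimmed by proteases and cross-linked outside the cell. In ovarian carcinoma much of the collagen is known to be made by stromal fibroblasts, while a culture of a cell line holds no such stroma by design.

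CDK12 itself was counted in every library, at 103, 125 and 117 CPM (read counts scaled to library size with edgeR's TMM factors) in WT replicates 1 to 3 and at 99.0, 93.0 and 102 CPM in KO replicates 1 to 3, a log2 fold change of -0.23 (SE 0.0582, adjusted p = 0.00082 by edgeR). Counts over the whole gene do not show an edit of exon 1, so they do not check the genotype. Library totals ran from 11098400 to 30899045 counts, and 3 counts corresponded to between 0.0971 and 0.270 CPM. Markers fixed for the labelled cell type were partly absent: of 10 ovarian carcinoma markers 3 were abundant enough to be tested (EPCAM, KRT8 and KRT18), while MUC16 had at most 1 count and PAX8 at most 6 counts in any library.

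Of the 44 collagen genes, 27 passed the filter on low counts and were tested. The other 17 had at most 12 counts in any library, 11 of them at most 3 counts in every library, and 3 (COL10A1, COL6A5 and COL6A6) had 0 counts in all. A gene is said to have risen or fallen here where edgeR's quasi-likelihood test gave an adjusted p under 0.05 together with a log2 fold change (KO over WT) above 1 or below -1. By this rule 6 collagen genes rose (22.2% of those tested) and 6 fell (22.2%). Over the 16198 genes tested, 8.3% rose and 7.73% fell. At the adjusted p alone, 10 collagen genes were higher in KO and 15 were lower, against 31.9% higher and 32.0% lower among all genes. All KO values lay above all WT values for 10 collagen genes and below them for 15, against 32.8% and 33.5% of all genes. The median log2 fold change was -0.24 over the tested collagen genes and 0.00 over all genes, and the median size of the change without its sign was 0.79 against 0.32. In bulk RNA, fewer cells making a transcript and less of it per cell cannot be told apart.

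Of the 27, 5 passed the filter only through the group in which they were high: COL5A3, COL9A2 and COL17A1 through KO, and COL11A1 and COL12A1 through WT. A gene admitted in this way is likely to show a difference because of the filter, so its call is weak support. Of the other 22 collagen genes, 3 rose (13.6%) and 4 fell (18.2%), against 8.3% and 7.73% of all genes. At the adjusted p alone 7 were higher (31.8%) and 13 lower (59.1%), against 31.9% and 32.0% of all genes. These shares over all genes include genes admitted through 1 group.

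**Figure D1:**
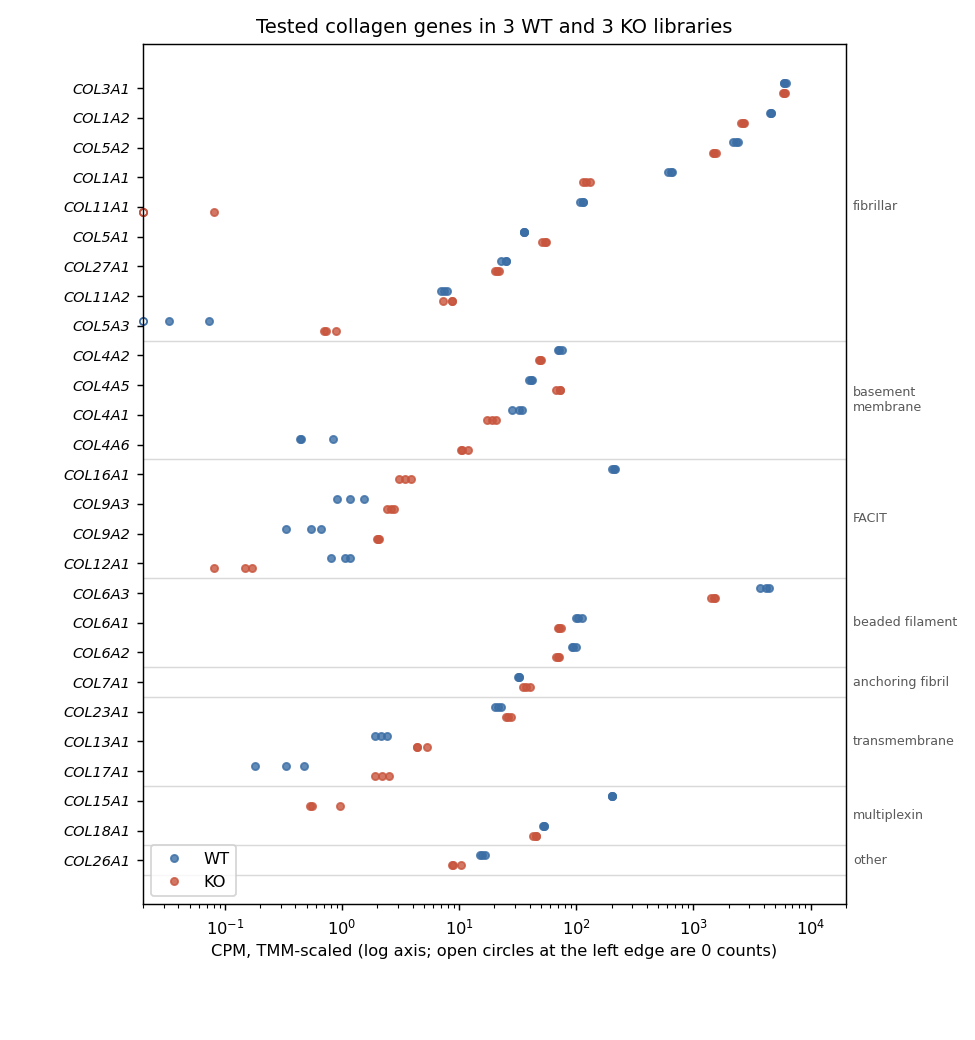
Level of each tested collagen gene in each library, in TMM-scaled CPM on a log axis, with WT in blue and KO in red and genes grouped by structural class. Groups overlap for COL3A1 and COL11A2, and the widest separations are those of COL11A1, COL15A1 and COL16A1.

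Regulatory sequence is shown for the collagen genes on which the results turn and which a promoter table from RefSeq (build GRCh38.p14) holds. All stretches are read 5′ to 3′ on the strand named, with each CG dinucleotide in capitals. Apart from the stretch between COL4A1 and COL4A2, each is the 250 bases before a start site, of which 0 lie in an exon of the canonical transcript of the gene. COL4A5 and COL4A6 lie head to head on chromosome X, and they are shown because both were higher in KO by very different amounts. The COL4A5 start site is 380 bases from the nearer COL4A6 start site and 1416 bases from the farther one, and the COL4A5 window shares 121 bases with the window of the nearer start.
COL4A5, chrX:108439588-108439837, plus strand: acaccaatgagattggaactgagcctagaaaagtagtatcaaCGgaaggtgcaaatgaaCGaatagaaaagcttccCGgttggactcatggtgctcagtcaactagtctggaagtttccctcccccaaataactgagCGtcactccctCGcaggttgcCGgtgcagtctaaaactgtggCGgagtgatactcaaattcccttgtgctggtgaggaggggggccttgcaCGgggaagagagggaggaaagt
COL4A6 nearer start, chrX:108439459-108439708, minus strand: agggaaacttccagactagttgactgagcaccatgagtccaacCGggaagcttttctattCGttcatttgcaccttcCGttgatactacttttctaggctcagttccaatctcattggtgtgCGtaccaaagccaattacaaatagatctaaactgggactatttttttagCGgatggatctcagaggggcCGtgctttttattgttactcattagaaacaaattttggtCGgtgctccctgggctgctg
COL4A6 farther start, chrX:108438423-108438672, minus strand: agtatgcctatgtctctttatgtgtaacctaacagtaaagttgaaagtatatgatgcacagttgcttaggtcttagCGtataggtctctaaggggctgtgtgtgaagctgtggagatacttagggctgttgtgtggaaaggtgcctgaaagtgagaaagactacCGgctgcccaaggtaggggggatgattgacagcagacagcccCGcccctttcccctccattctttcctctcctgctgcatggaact

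The other head-to-head pair that was expressed, COL4A1 and COL4A2 on chromosome 13, has start sites only 127 bases apart, and both genes were lower in KO by a similar amount. The 126 bases between the start sites hold 20 CG dinucleotides and are 80.2% G or C, and 26 of them lie in an annotated exon.
Between COL4A1 and COL4A2, chr13:110307158-110307283, minus strand: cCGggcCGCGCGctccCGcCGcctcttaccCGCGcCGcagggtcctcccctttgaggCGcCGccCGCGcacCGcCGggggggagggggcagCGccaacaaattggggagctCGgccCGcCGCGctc

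COL11A1 is shown as the collagen gene with the widest fall and COL17A1 as a gene that rose from near the counting floor. The COL11A1 stretch holds 11 CG dinucleotides and is 68.8% G or C, whereas that of COL17A1 holds 1 and is 40.4% G or C.
COL11A1, chr1:103108523-103108772, minus strand: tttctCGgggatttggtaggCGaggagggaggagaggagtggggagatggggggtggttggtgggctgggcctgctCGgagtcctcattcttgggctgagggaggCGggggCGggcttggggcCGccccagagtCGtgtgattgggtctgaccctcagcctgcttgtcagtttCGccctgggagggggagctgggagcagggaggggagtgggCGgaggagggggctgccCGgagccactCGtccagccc
COL17A1, chr10:104085881-104086130, minus strand: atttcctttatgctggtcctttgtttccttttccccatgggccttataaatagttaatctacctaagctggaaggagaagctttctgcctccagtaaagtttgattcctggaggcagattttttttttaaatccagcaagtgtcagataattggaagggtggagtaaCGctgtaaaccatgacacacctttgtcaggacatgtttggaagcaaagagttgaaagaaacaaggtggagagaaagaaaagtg

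Sequence motifs were counted in windows of 300 bases (250 before and 50 after a start site) on both strands, with overlapping matches of different motifs allowed. The RefSeq table held 44 windows of 32 collagen genes. TATAAA occurred in 18.2% of these windows and in 11.5% of all 35116 windows, CCAAT in 31.8% and 34.6%, and GGGCGG in 54.5% and 45%. Genes that rose had 6 windows of 5 genes, of which 2 held TATAAA, 3 CCAAT and 3 GGGCGG. Genes that fell had 5 windows of 5 genes, of which 0 held TATAAA, 1 CCAAT and 4 GGGCGG. The median number of CG dinucleotides per window was 12 for the genes that rose, 22 for those that fell, 17 for all collagen windows and 14 for all windows. These counts describe letters in a window and say nothing about the binding of a factor.

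Among the fibrillar collagens, 9 of 11 genes were tested, of which 1 rose and 2 fell (11.1% and 22.2%, against 8.3% and 7.73% of all genes). COL1A1 on chromosome 17 encodes the major chain of type I collagen, the main fibril of bone, skin and tendon. It stood at 637, 601 and 650 CPM in WT replicates 1 to 3 and at 113, 132 and 120 CPM in KO replicates 1 to 3. The groups were far apart, and COL1A1 fell 5.17-fold (log2 fold change -2.37, SE 0.055, adjusted p = 2.98e-27 by edgeR).

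COL1A2 on chromosome 7 encodes the partner chain of type I collagen. Its WT values of 4500, 4610 and 4620 CPM were all above its KO values of 2560, 2680 and 2630 CPM. The log2 fold change was -0.80 (SE 0.0504), a smaller difference than that of COL1A1 and short of the fold threshold.

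COL3A1 on chromosome 2 encodes type III collagen, which forms fibrils together with type I in skin and vessels. WT libraries had 5880, 6170 and 5970 CPM and KO libraries had 5850, 5970 and 6060 CPM. The groups overlapped, and the log2 fold change was -0.01 with a 95% interval from -0.12 to 0.09 (adjusted p = 0.863 by edgeR). Its sign turned under 4 alternatives named in the closing section, each within that interval. COL3A1 had the highest level per kilobase of transcript of the collagen genes in both groups.

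Type V collagen is a minor fibrillar collagen that takes part in starting and sizing type I fibrils, and the values of its 3 chains went in different directions. COL5A2, the tail-to-tail neighbour of COL3A1 across a gap of 19.2 kb, was lower in KO at the adjusted p alone, with 2180, 2410 and 2310 CPM in WT against 1470, 1500 and 1560 CPM in KO (log2 fold change -0.60, SE 0.051). COL5A1 on chromosome 9 was higher in KO at the adjusted p alone, with 35.4, 35.6 and 35.8 CPM in WT against 51.4, 53.5 and 55.6 CPM in KO (log2 fold change 0.59, SE 0.0574).

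COL5A3 on chromosome 19 encodes the third type V chain. It rose from the counting floor, from 2, 1 and 0 counts in WT replicates 1 to 3 to 22, 19 and 13 counts in KO replicates 1 to 3. The ratio of the summed levels, KO over WT, was 17.8, with an exact counting interval from 5.77 to 88.9 that covers counting error only (adjusted p = 9.5e-08 by edgeR). With WT at 3 counts in all, the size of the rise is loosely bounded.

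Type XI collagen is the fibrillar relative of type V that is known from cartilage, and COL11A1 is also known from tumour stroma. COL11A1 on chromosome 1 had 2936, 3400 and 1268 counts in WT replicates 1 to 3, or 107, 113 and 114 CPM, and 2, 0 and 0 counts in KO replicates 1 to 3. Its signal was thus nearly gone from all 3 KO libraries. The ratio of the summed levels, WT over KO, was 3850 with an exact counting interval from 1060 to 31800 (adjusted p = 2.49e-33 by edgeR). COL11A2 on chromosome 6, which encodes another type XI chain, had 7.44, 7.84 and 7.02 CPM in WT and 7.28, 8.62 and 8.71 CPM in KO. These ranges overlapped, and its log2 fold change of 0.12 had a 95% interval from -0.10 to 0.34 (adjusted p = 0.332 by edgeR).

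COL27A1 on chromosome 9, a fibrillar collagen known from cartilage, had 25.0, 22.6 and 25.0 CPM in WT and 20.3, 20.9 and 21.9 CPM in KO. Its log2 fold change of -0.20 (SE 0.0708, adjusted p = 0.0151 by edgeR) was past the adjusted p alone, and no longer so without WT replicate 1 or without KO replicate 1. The untested fibrillar genes were COL2A1, the main collagen of cartilage, with at most 1 count in any library, and COL24A1 with at most 2.

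**Figure D2:**
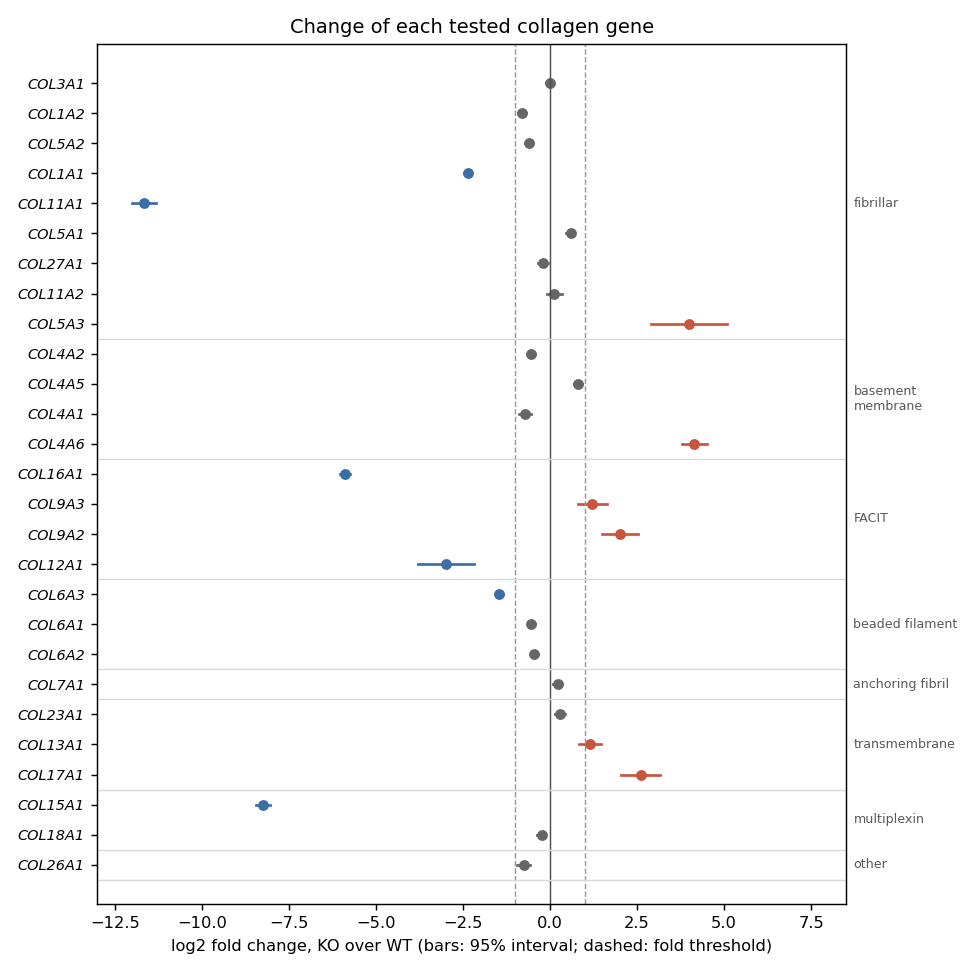
Log2 fold change (KO over WT) of each tested collagen gene, with a 95% interval derived from edgeR's F statistic as a bar and the fold threshold of 1 as dashed lines. Genes that rose are red, genes that fell are blue and the rest are grey. The fitted values of COL11A1 and COL5A3, each with a group at the counting floor, depend on the prior count. Bars are too narrow where a group had few counts and the change was wide, as for COL11A1, COL15A1 and COL5A3.

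The basement membrane network is made of type IV chains, and 4 of its 6 genes were tested. COL4A1 and COL4A2 encode the chains found in nearly all basement membranes. COL4A1 had 28.2, 34.4 and 32.1 CPM in WT and 20.5, 19.2 and 17.4 CPM in KO (log2 fold change -0.72, SE 0.0769). COL4A2 had 70.3, 74.9 and 70.5 CPM in WT and 48.1, 50.0 and 49.3 CPM in KO (log2 fold change -0.55, SE 0.0536). For this pair, whose promoter stretch is printed above, KO was below WT in all libraries at the adjusted p alone and neither gene passed the fold threshold. Their annotated spans overlap by 1346 bases on opposite strands. The library kit keeps the strand, but the strand setting of the counting is not given in the sources used here.

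COL4A5 and COL4A6 encode chains that occur together in specialised basement membranes such as that of smooth muscle and Bowman's capsule. COL4A5 had 41.5, 39.8 and 41.4 CPM in WT and 67.5, 72.5 and 72.6 CPM in KO, and was higher at the adjusted p alone (log2 fold change 0.79, SE 0.0555). COL4A6 had 12, 25 and 5 counts in WT, or 0.438, 0.834 and 0.450 CPM, and 10.5, 11.8 and 10.4 CPM in KO. WT replicates 1 and 3 were close to the filter minimum of 0.394 CPM, so the size of its rise rests on few WT counts. Every KO library was far above every WT library, and COL4A6 rose 17.7-fold (log2 fold change 4.15, adjusted p = 7.53e-20 by edgeR). The third head-to-head pair, COL4A3 and COL4A4 on chromosome 2, known from the glomerulus, was at the floor in both groups, with 1 count in 1 WT library for COL4A3 and 1 count in 1 KO library for COL4A4.

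The fibril-associated collagens with interrupted helices (FACIT) attach to the surface of fibrils. Of these 10 genes 4 were tested, and all 4 passed both thresholds. In this class 2 rose and 2 fell, against 8.3% and 7.73% of all genes. COL9A2 and COL12A1 are among the genes admitted through 1 group, which leaves 1 that rose and 1 that fell. COL16A1 on chromosome 1, known from skin and smooth muscle, had 208, 203 and 214 CPM in WT and 3.91, 3.42 and 3.09 CPM in KO. It fell 59.4-fold (log2 fold change -5.89, adjusted p = 1.28e-34 by edgeR), to 96, 92 and 55 counts in KO replicates 1 to 3.

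COL12A1 on chromosome 6, which binds type I fibrils in dense connective tissue, fell from a low level. It had 29, 35 and 9 counts in WT replicates 1 to 3 and 2, 4 and 3 counts in KO replicates 1 to 3 (log2 fold change -2.98, adjusted p = 7.34e-08 by edgeR).

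Type IX collagen coats the type II fibrils of cartilage, and 2 of its 3 genes rose, both from low levels. COL9A2 on chromosome 1 had 18, 10 and 6 counts in WT and 49, 54 and 37 counts in KO (log2 fold change 2.01, SE 0.259, adjusted p = 4.3e-08 by edgeR). COL9A3 on chromosome 20 had 32, 27 and 17 counts in WT and 59, 71 and 49 counts in KO (log2 fold change 1.21, SE 0.205, adjusted p = 5.53e-06 by edgeR). The annotated span of COL9A3 overlaps that of TCFL5, so reads of the 2 genes may not be fully separated. COL9A1, the third chain of type IX, had 1 count in 1 WT library, and its neighbour COL19A1 had 1 count in each of 2 KO libraries.

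Of the other FACIT genes, COL20A1 had between 0 and 11 counts and COL21A1 between 0 and 12. COL21A1, another FACIT gene, had 12, 10 and 1 counts in WT and 0, 0 and 1 counts in KO, so that the groups met at 1 count. In CPM they were apart only because 1 count was scaled to different library sizes (0.0900 in WT replicate 3, 0.0562 in KO replicate 3). The ratio of the summed levels, WT over KO, was 23.3 with an exact counting interval from 3.78 to 959. COL21A1 did not pass the filter on low counts. With no filter beyond 1 count it was the 1 further collagen gene past both thresholds (log2 fold change -4.09, adjusted p = 4e-05 by edgeR), which made 7 that fell. COL14A1 and COL22A1 had at most 1 count in any library.

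Type VI collagen forms beaded microfibrils around cells, and its 3 expressed chains were all lower in KO at the adjusted p alone, against 32.0% of all genes. COL6A3 on chromosome 2, the long chain of the heterotrimer, had 3700, 4400 and 4120 CPM in WT and 1490, 1420 and 1530 CPM in KO, and it alone of these chains fell past the fold threshold (2.76-fold, log2 fold change -1.46, SE 0.0572, adjusted p = 7.18e-21 by edgeR). Its neighbouring partner chains on chromosome 21 differed less. COL6A1 had 103, 99.9 and 111 CPM in WT and 70.2, 71.6 and 73.8 CPM in KO (log2 fold change -0.54, SE 0.0523). COL6A2 had 100, 91.7 and 93.0 CPM in WT and 69.9, 70.8 and 67.5 CPM in KO (log2 fold change -0.45, SE 0.0522). COL6A5 and COL6A6, neighbours on chromosome 3, had 0 counts in all 6 libraries.

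COL7A1 on chromosome 3 encodes the anchoring fibril that ties the epidermis to the dermis. It was higher in KO at the adjusted p alone by a small amount, with 32.6, 31.8 and 32.4 CPM in WT and 35.1, 40.4 and 37.0 CPM in KO (log2 fold change 0.22, SE 0.0635, adjusted p = 0.00334 by edgeR).

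The transmembrane collagens cross the cell membrane, and the 3 tested were all higher in KO at the adjusted p alone, against 31.9% of all genes. Of these, 2 were past the fold threshold, against 8.3% of all genes, and COL17A1 had passed the filter only through KO. COL17A1 on chromosome 10, a component of hemidesmosomes, had 13, 10 and 2 counts in WT and 54, 68 and 34 counts in KO. It rose 6.08-fold (log2 fold change 2.60, adjusted p = 6.56e-10 by edgeR). COL13A1, also on chromosome 10 and known from cell adhesions and the neuromuscular junction, had 1.90, 2.14 and 2.43 CPM in WT and 4.40, 4.35 and 5.28 CPM in KO (log2 fold change 1.14, SE 0.156, adjusted p = 1.48e-07 by edgeR). COL23A1 on chromosome 5 had 22.6, 20.1 and 21.4 CPM in WT and 25.1, 27.6 and 25.9 CPM in KO (log2 fold change 0.30, SE 0.0707). COL25A1, a transmembrane collagen known from motor neuron development, had at most 4 counts in any library.

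The multiplexins are basement membrane zone collagens that carry sugar side chains, and both were lower in KO at the adjusted p alone, against 32.0% of all genes. COL15A1 on chromosome 9 had 5475, 6005 and 2219 counts in WT replicates 1 to 3, or 200 CPM in each, and 13, 15 and 17 counts in KO replicates 1 to 3, or 0.529, 0.557 and 0.955 CPM. The WT libraries were nearly equal and the KO libraries were close to the counting floor. COL15A1 fell 305-fold (log2 fold change -8.25, adjusted p = 2e-35 by edgeR), and with so few KO counts the size of the fall is loosely bounded. COL18A1 on chromosome 21, the source of endostatin, had 53.4, 52.8 and 52.2 CPM in WT and 45.4, 45.5 and 42.9 CPM in KO (log2 fold change -0.24, SE 0.0554). The annotated span of COL18A1 overlaps that of SLC19A1.

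COL26A1 on chromosome 7, known from testis and ovary, was lower in KO at the adjusted p alone, with 16.5, 15.1 and 15.7 CPM in WT and 10.4, 8.73 and 8.77 CPM in KO (log2 fold change -0.76, SE 0.0907). The short-chain network genes COL8A1 and COL8A2 had at most 6 counts in any library, and COL28A1 had at most 7.

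The calls were also divided by the level of the gene, with no test of the difference between levels. Of the 19 collagen genes with a mean of at least 10 CPM over the 6 libraries, 0 rose and 5 fell by edgeR, while 4 were higher and 14 lower at the adjusted p alone. Of the 5, COL11A1 was admitted through WT alone. Among all genes at that level 2.80% rose and 4.09% fell, while 31.8% were higher and 37.8% lower at the adjusted p alone. Of the 8 collagen genes under 10 CPM, 6 rose and 1 fell, against 16.8% and 13.4% of all genes at that level. Of those 8 genes, 4 had passed the filter only through their high group, and of the other 4, 3 rose and 0 fell by edgeR. For the 25 collagen genes whose groups did not overlap, the exact permutation test of log2 CPM (two-sided) gave p = 0.1, the smallest that 3 libraries against 3 can give.

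Summed over the 44 genes, collagen took 1.76%, 1.87% and 1.88% of all counts in WT replicates 1 to 3 and 1.22%, 1.24% and 1.26% in KO replicates 1 to 3. In TMM-scaled CPM the sums were 17951, 19240 and 18742 in WT and 11987, 12224 and 12402 in KO. The KO mean was 0.655 of the WT mean, and the groups did not overlap (exact permutation p = 0.1, two-sided). A sum of counts weighs long transcripts more than short ones.

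The make-up of this sum differed between the groups. COL3A1 was 32.2% ± 0.416 of the collagen sum in WT and 48.8% ± 0.0577 in KO (SD, n = 3 libraries each). COL6A3 was 21.8% ± 1.11 in WT and 12.1% ± 0.436 in KO. COL1A2 was 24.6% ± 0.557 in WT and 21.5% ± 0.361 in KO, and COL1A1 was 3.38% ± 0.223 in WT and 0.996% ± 0.0741 in KO. These 4 shares did not overlap between the groups (exact permutation p = 0.1 each, two-sided). The share of COL5A2 was 12.3% ± 0.200 in WT and 12.4% ± 0.173 in KO, and here the groups overlapped (exact permutation p = 0.7).

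Levels of different genes were compared per kilobase of the canonical transcript. In WT, COL3A1 stood at 1090 ± 26.9 CPM per kb, COL1A2 at 902 ± 13.2, COL6A3 at 387 ± 33.1, COL5A2 at 337 ± 17.5 and COL1A1 at 106 ± 4.24 (SD, n = 3). In KO the order of the first 2 was the same, at 1090 ± 19.3 for COL3A1 and 517 ± 11.2 for COL1A2, followed by COL5A2 at 222 ± 6.40 and COL6A3 at 140 ± 4.95. The WT order of COL6A3 and COL5A2 depended on the length used: per kilobase of all annotated exons of the gene, COL6A3 stood at 189 and COL5A2 at 314 CPM per kb.

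Chains that build the same or neighbouring fibrils were compared as ratios of CPM per kb within each library, for 9 pairs of genes. The ratio of COL1A2 to COL1A1 was 8.23, 8.94 and 8.29 in WT replicates 1 to 3 and 26.5, 23.6 and 25.5 in KO replicates 1 to 3. Type I collagen is assembled with more of the COL1A1 chain than of the COL1A2 chain, whereas the RNA of COL1A2 was the more abundant per kilobase in both groups. With the length of all annotated exons in place of the canonical transcript, the mean ratio was 6.07 in WT and 18.0 in KO.

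The ratio of COL3A1 to COL1A1 differed the most among type III and type I chains, from a mean of 10.3 ± 0.651 in WT to 53.0 ± 3.89 in KO (SD, n = 3), and that of COL3A1 to COL1A2 went from 1.21 ± 0.0209 to 2.10 ± 0.0374. The ratio of COL5A2 to COL5A1 was 79.8 ± 4.00 in WT and 35.0 ± 0.426 in KO. The ratio of COL3A1 to its neighbour COL5A2 was 3.25 ± 0.0953 in WT and 4.90 ± 0.0616 in KO.

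For type VI, the ratio of COL6A3 to COL6A1 was 15.6 ± 1.74 in WT and 8.21 ± 0.264 in KO, while that of COL6A1 to COL6A2 was 0.905 ± 0.0708 and 0.849 ± 0.0407 and overlapped between the groups (exact permutation p = 0.3). The head-to-head pairs of type IV differed from each other. COL4A2 to COL4A1 was 2.32 ± 0.179 in WT and 2.63 ± 0.249 in KO, with overlapping groups (exact permutation p = 0.2). COL4A5 to COL4A6 was 97.1, 48.8 and 94.2 in WT replicates 1 to 3 and 6.58, 6.28 and 7.15 in KO replicates 1 to 3. These WT ratios rest on COL4A6 counts of 12, 25 and 5. For the 7 pairs whose ratios did not overlap the exact permutation p was 0.1, and 0.129 after Benjamini-Hochberg adjustment over the 9 pairs.

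**Figure D3:**
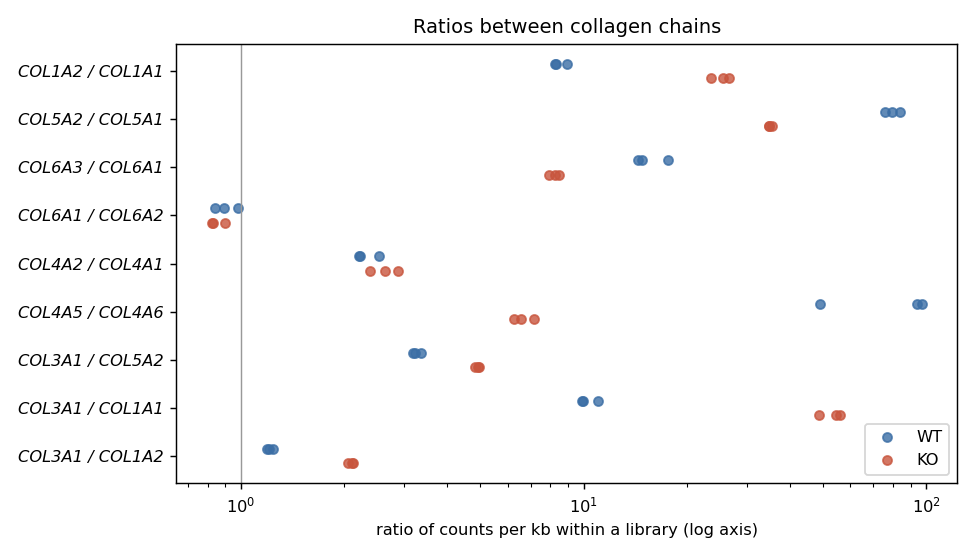
Ratio of CPM per kb between collagen genes within each library, on a log axis, with 3 WT (blue) and 3 KO (red) libraries per pair. The ratios of COL6A1 to COL6A2 and of COL4A2 to COL4A1 overlap between the groups, and the other 7 do not.

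The tested genes next to each collagen gene on the chromosome were examined. Of the 6 collagen genes that fell, 3 had an adjacent gene that also fell: OLFM3 beside COL11A1 (log2 fold change -13.82 with a gap of 880 kb), GALNT12 beside COL15A1 (-1.19, 93.1 kb) and the gene ENSG00000224132 beside COL6A3 (-1.58, 66.3 kb). Of the 6 that rose, 0 had a neighbour that also rose. Among all genes that fell and could be placed, 36.2% had an adjacent gene that fell, and among those that rose 33.0% had one that rose. COL15A1 also lies 33.2 kb from TGFBR1, a TGF-beta receptor gene (log2 fold change -0.61).

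Genes that make, modify, cross-link and bind collagen were taken from a list of 67 genes, of which 56 were tested. Of these, 6 rose (10.7%, against 8.3% of all genes) and 9 fell (16.1%, against 7.73%). At the adjusted p alone 17 (30.4%, against 31.9%) were higher and 29 (51.8%, against 32.0%) were lower in KO. The median log2 fold change was -0.20. Of the 56 genes, 10 passed the filter on low counts only through 1 group, and of the other 46, 4 rose and 2 fell, with 15 higher and 22 lower at the adjusted p alone.

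Of the 4 tested genes of cross-linking, all of the lysyl oxidase family, 3 fell, against 7.73% of all genes, and the fourth, LOXL3, was lower at the adjusted p alone (log2 fold change -0.61). LOXL2 had 111, 116 and 113 CPM in WT and 23.5, 25.6 and 24.6 CPM in KO (log2 fold change -2.20, SE 0.0565, adjusted p = 4.78e-26 by edgeR). LOX had 64 counts over the 3 WT libraries and 0 in KO. The exact counting interval of its ratio of summed levels, WT over KO, started at 17.1. LOXL4 had 296 counts in WT and 0 in KO, with an interval that started at 80.7. LOX and LOXL4 passed the filter only through WT, which leaves LOXL2 as the 1 gene that fell among the 2 admitted through both groups. LOXL1 had at most 1 count in any library and was not tested.

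Among the 7 tested genes of propeptide cleavage, 2 rose and 1 fell (28.6% and 14.3%, against 8.3% and 7.73% of all genes). BMP1, the protease that removes the C-terminal propeptide of fibrillar collagens, had 35.9, 36.1 and 36.2 CPM in WT and 118, 129 and 121 CPM in KO (log2 fold change 1.76, SE 0.0545). Its relative TLL2 had 10.8, 10.7 and 12.6 CPM in WT and 29.1, 29.5 and 27.5 CPM in KO (log2 fold change 1.36, SE 0.0773). ADAMTS2, which removes the N-terminal propeptide, had 4.82, 4.54 and 4.68 CPM in WT and 0.895, 0.854 and 0.618 CPM in KO (log2 fold change -2.53, SE 0.187).

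Of the 12 tested genes of chain hydroxylation, 1 rose and 1 fell (8.33% each, against 8.3% and 7.73% of all genes). At the adjusted p alone 4 were higher and 6 lower (33.3% and 50.0%, against 31.9% and 32.0% of all genes). PLOD2, a lysyl hydroxylase, had 20.8, 20.7 and 22.3 CPM in WT and 45.5, 39.8 and 44.3 CPM in KO (log2 fold change 1.03, SE 0.0673), just past the fold threshold, and without KO replicate 1 its value of 0.99 was short of it. P4HA3, a prolyl hydroxylase subunit that passed the filter only through WT, had 1.72, 1.77 and 1.80 CPM in WT and 0.610, 0.260 and 0.337 CPM in KO (log2 fold change -2.10, SE 0.284). P4HA1, another prolyl hydroxylase subunit, was lower at the adjusted p alone (log2 fold change -0.69). SERPINH1 (HSP47), the chaperone of procollagen, was also lower at the adjusted p alone, with 843, 858 and 810 CPM in WT and 513, 532 and 499 CPM in KO (log2 fold change -0.70, SE 0.0473). Of the 5 tested genes of chaperones and folding, 2 were higher and 3 lower at the adjusted p alone (40.0% and 60.0%, against 31.9% and 32.0% of all genes).

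Of the small proteoglycans that bind fibrils, DCN (decorin) and LUM (lumican) fell and BGN (biglycan) rose, each with 0 counts in the lower group and each admitted by the filter through the higher group alone. DCN had 51 counts in WT and LUM had 43. The exact counting intervals of their ratios of summed levels, WT over KO, started at 13.5 and 11.3. BGN had 38 counts in KO, and its interval, KO over WT, started at 9.69. Without KO replicate 2, BGN was too low to be tested.

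Of 7 tested collagen receptors 2 rose (28.6%, against 8.3% of all genes), both integrin alpha subunits, and 0 fell by edgeR past both thresholds. At the adjusted p alone 4 were higher and 2 lower (57.1% and 28.6%, against 31.9% and 32.0% of all genes). ITGA2, which passed the filter only through KO, had 0.182, 0.167 and 0.450 CPM in WT and 5.05, 3.27 and 4.78 CPM in KO (log2 fold change 4.26). ITGA10 had 4.20, 4.14 and 4.41 CPM in WT and 18.8, 23.7 and 18.3 CPM in KO (log2 fold change 2.28, SE 0.11). Their common partner ITGB1 and the discoidin receptor DDR1 were lower at the adjusted p alone (log2 fold changes -0.47 and -0.62), and the related DDR2 was higher (0.20).

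Of 6 tested regulators 2 fell, both admitted by the filter only through WT, against 7.73% of all genes. Of the other 4, 0 rose or fell by edgeR past both thresholds. At the adjusted p alone 1 of these 4 was higher and 2 were lower, against 31.9% and 32.0% of all genes. TGFB2, a ligand of the TGF-beta pathway that induces many collagen genes, had 1369 counts in WT and 2 counts in KO, and the ratio of the summed levels, WT over KO, was 693 with an exact counting interval from 191 to 5730. CCN2, a matricellular target of that pathway, had 20.7, 17.5 and 19.9 CPM in WT and 0.407, 0.371 and 0.281 CPM in KO (log2 fold change -5.72, adjusted p = 2.02e-24 by edgeR). TGFB1 was higher at the adjusted p alone (log2 fold change 0.63), whereas TGFBR1 and SMAD3 were lower (-0.61 and -0.75).

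**Figure D4:**
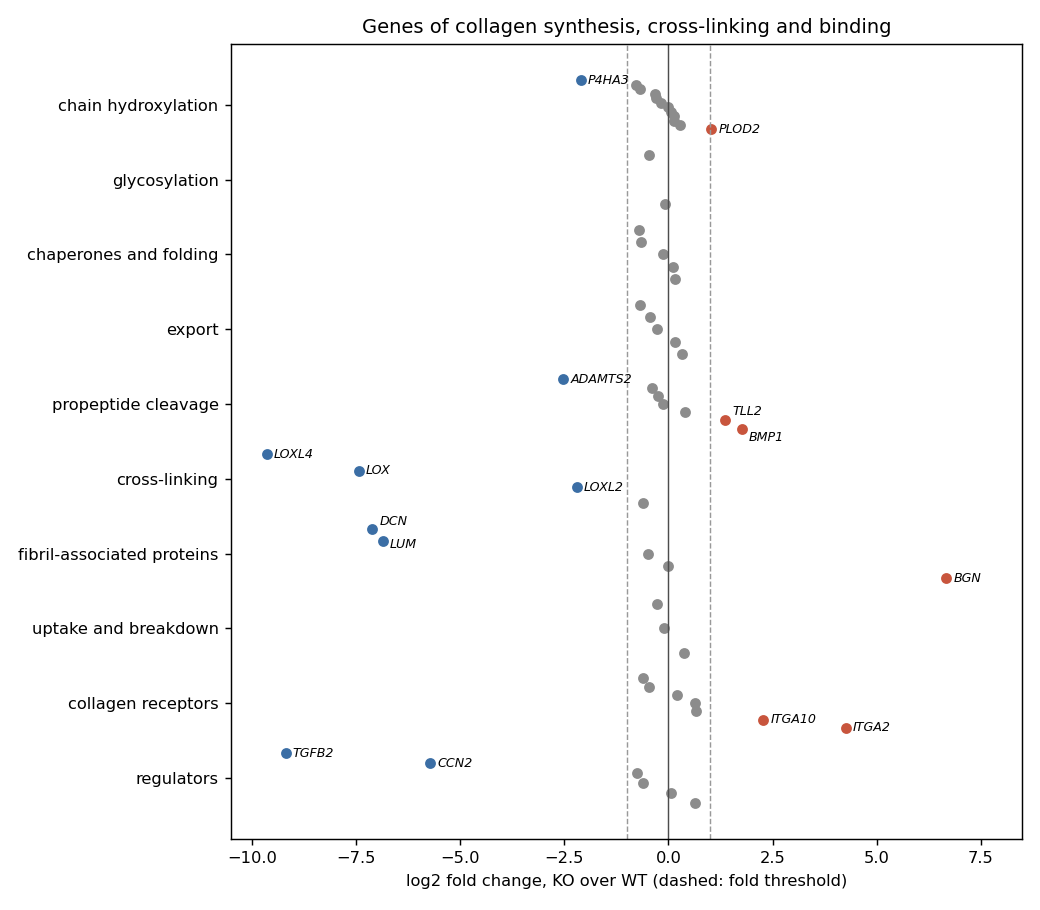
Log2 fold change (KO over WT) of the 56 tested genes of collagen synthesis, cross-linking and binding, by step, with the fold threshold of 1 dashed, genes that rose in red and genes that fell in blue. All 4 tested cross-linking genes lie below 0. The values of LOX, LOXL4, DCN, LUM, BGN and TGFB2, each with a group at the counting floor, depend on the prior count.

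Several markers of fibroblasts and stroma were lower in KO, as many collagens were. Of 9 such markers 7 were tested and 4 fell, against 7.73% of all genes: PDGFRA (log2 fold change -2.63), PDGFRB (-1.92), DCN and LUM. The last 2 also stand among the proteoglycans above and passed the filter only through WT. PDPN was lower (-0.79) and THY1 higher (0.26) at the adjusted p alone. ACTA2 was past neither threshold (0.23, adjusted p = 0.125 by edgeR). The summed level of the 9 markers ran from 228 to 237 CPM in WT and from 163 to 173 CPM in KO. PDGFRA weighed most in this difference, with a mean of 90.7 CPM in WT and 14.8 CPM in KO, while THY1 went from 113 to 136 CPM. FAP had 1 count in 1 WT library and DPT had 0 counts in all. The sum of 5 chondrocyte markers ran from 10.0 to 11.7 CPM in WT and from 4.55 to 5.13 CPM in KO, with COMP (-1.07) the only one tested. The sum of 5 endothelial markers ran from 0.146 to 0.367 CPM in WT and from 0.730 to 0.929 CPM in KO, and that of 6 leukocyte markers from 0.668 to 1.06 and from 0.692 to 1.15 CPM, with VWF and CD14, 1 of each list, up from low counts. The sum of the 10 ovarian carcinoma markers ran from 68.5 to 74.1 CPM in WT and from 115 to 120 CPM in KO, a sum carried mostly by KRT18, with a mean of 59.9 CPM in WT and 103 CPM in KO. EPCAM went the other way (log2 fold change -0.53, adjusted p = 0.0119 by edgeR), and PAX8, which was not tested, had 14 counts over the WT libraries and 4 over the KO libraries. The part of all these markers in the collagen results was not tested.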

How the data were processed

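RNA-seq libraries of A2780 WT and CDK12 KO cells (3 each) were analysed. The authors aligned reads to GRCh38 with STAR after FastQC and deposited raw counts per gene from HTSeq; versions, annotation and strand setting are not given in the sources used here. Ensembl identifiers, with the version removed, were looked up in GENCODE 44, which held 93.1% of those listed. Groups were taken from the genotype labels. Genes were kept with filterByExpr (minimum count 10, minimum total 15), scaled with TMM and tested with edgeR 4.0.16 (quasi-likelihood, two-sided, Benjamini-Hochberg over 16198 genes) in R 4.3.3. Standard errors and 95% intervals were derived from the F statistic and the log2 fold change. They understate the counting error where a group had few counts and the change was wide. Alternatives used limma 3.58.1 (voom), DESeq2 1.42.0, other scalings, other filters, thinning to the smallest total and omission of each library. The test was also run on simulated counts in which only well-counted genes were changed. That run does not cover calls with a group near the counting floor. Per-library differences were compared with exact permutation tests of log2 CPM with a pseudocount of 0.1. Exact counting intervals cover counting error only. The members and lists were chosen with earlier results of these data known. Collagen genes were named with library values when past both thresholds, at a mean of at least 10 CPM or in a neighbouring pair, and COL11A2 besides. Genes of the other lists were named when past both thresholds, and others (LOXL3, P4HA1, SERPINH1, ITGB1, DDR1, DDR2, TGFB1, TGFBR1, SMAD3) after their values were seen.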

Additional observations from a re-analysis of the deposited data

How the results depend on the processing

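With 27 tested collagen genes and 13 alternative fits, 343 fold changes could be recomputed, and 339 kept their direction and their call by both thresholds together, although COL27A1, not called in any, lost the adjusted p alone without WT replicate 1 and without KO replicate 1. The other 4 were COL3A1, whose log2 fold change was 0.02 with upper-quartile factors, 0.01 with at least 10 counts in every library, 0.01 without WT replicate 2 and 0.00 without KO replicate 1, all reversed in sign from -0.01 (-0.03 to 0.01 with a library left out). All 12 collagen calls held in each of these alternative fits that kept the gene. At 10 counts in every library the collagen genes that rose numbered 2, because COL5A3, COL4A6, COL9A2 and COL17A1 were removed, as were COL11A1 and COL12A1 among those that fell. COL5A3 and COL12A1 were also removed by thinning. At the adjusted p alone, 10 collagen genes were higher and 15 lower, and 17 genes of the synthesis and receptor list were higher and 29 lower. In that list 2 genes fell at 10 counts in every library, since 7 of the 9 were removed. When each library was left out, the counts were 6 to 6 collagen genes up, 6 to 6 down, and 5 to 6 and 9 to 9 genes of the list. PLOD2 lost its call without KO replicate 1 (log2 fold change 0.99) and BGN was not kept without KO replicate 2. The summed collagen level, KO over WT, ran from 0.643 to 0.665 with a library left out and was 0.675 with raw totals, 2 alternatives chosen after seeing the data. A test against the fold threshold itself left 4 collagen genes up and 6 down. Other scalings moved the median of all genes by at most 0.028 (log2). With no filter beyond 1 count 7 collagen genes fell, the further one being COL21A1, and the other 13 untested genes with a count were not past the thresholds, so a difference was not detectable for them at this depth. No paired analysis was possible because no label ties a WT library to a KO library.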

Other observations

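Proteins outside the collagen family that carry a collagen-like domain were taken from a list of 32 genes written from general knowledge after other values were seen. Of these 12 were tested, 0 rose and 3 fell by edgeR past both thresholds, and at the adjusted p alone 2 were higher and 6 lower, against 8.3%, 7.73%, 31.9% and 32.0% of all genes. COLEC12 and EMILIN2 passed the filter on low counts only through WT, and of the 9 genes admitted through both groups 0 rose and 1 fell by edgeR. COLEC12, a scavenger receptor, averaged 4.48 ± 0.224 CPM over the WT libraries and 0.427 ± 0.158 over the KO libraries (SD, n = 3; log2 fold change -3.33). EMILIN2, an elastic fibre glycoprotein, had 0.814 ± 0.161 and 0.148 ± 0.0314 CPM (-2.53), and MBL2, a lectin of the complement system, had 3.87 ± 0.160 and 1.65 ± 0.133 CPM (-1.26). EMILIN1, the one with the most counts of the 12, averaged 365 ± 11.5 CPM in the WT libraries and 348 ± 8.17 CPM in the KO libraries, with overlapping groups (log2 fold change -0.07, adjusted p = 0.19 by edgeR).

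At collagen loci the count table also lists 10 rows that are antisense, divergent or pseudogene transcripts, and 8 of them had 0 counts in all libraries, among them the antisense rows of COL4A2, COL5A1 and COL18A1. The pseudogene COL6A4P2 had 13, 9 and 2 counts in WT replicates 1 to 3 and 24, 34 and 20 counts in KO replicates 1 to 3 (log2 fold change 1.67, SE 0.319, adjusted p = 3.24e-05 by edgeR). COL6A2-DT had at most 3 counts in any library.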
